A study of Homo sapiens with 6 samples.

Results

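The genes described here encode the core proteins that rejoin broken DNA ends: XRCC6, XRCC5, PRKDC, LIG4, XRCC4, NHEJ1, DCLRE1C and TP53BP1. They were taken by symbol, and all 8 had a row among the 26699 genes of the deposited count table. The list was chosen from the end-joining pathway with the si against sinc differences of these same libraries already known. The differences of these 8 genes are therefore given as a description, with the error of the fit and without a p-value, and a call among them is only a statement of which side of the threshold a gene lay on. The RNA came from OVCA433, a human ovarian cancer line in long use, and was sequenced as 3 libraries labelled sinc and 3 labelled si. Neither name is spelled out in the labels, which also give no dose, no time and no reagent sequence. The series title places the comparison in a study of SOGA1 deficiency. Separate cultures are not stated for the replicates, so that the p-values speak only of scatter among these libraries, which may be technical. Values per library are given in the order of replicates 1, 2 and 3.

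Non-homologous end joining repairs a double-strand break without a template. A ring of Ku70 and Ku80, the products of XRCC6 and XRCC5, threads onto each broken end and recruits the kinase DNA-PKcs, the product of PRKDC. The nuclease Artemis, from DCLRE1C, trims ends that cannot be joined directly, and the ligase LIG4 seals them together with its partners XRCC4 and XLF, the latter from NHEJ1. 53BP1, from TP53BP1, binds the chromatin around the break and limits the resection that would commit it to homologous recombination. The pathway acts through most of the cell cycle and, in lymphocytes, completes the rearrangement of antigen receptor genes.

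Total counts ran from 33778707 to 44130601 per library, with totals of 33778707 to 40144134 in si and 38031056 to 44130601 in sinc. SOGA1 was lower in every si library, with 20.2 to 27.2 CPM (the count relative to library size, scaled by TMM factors) against 59.7 to 64.4 CPM in sinc (log2 fold change -1.37, SE 0.11, edgeR adjusted p = 0.000963). KRT7, KRT8, KRT18 and PAX8, markers of an epithelial ovarian line, had between 602 and 2481 CPM as group means, while EPCAM and WFDC2 lay at or below 1.93 CPM and MUC16 and CDH1 were not analysed here. Markers of immune, endothelial and stromal cells summed to 165 to 175 CPM in sinc and 203 to 225 CPM in si over 7 genes in the table, nearly all of it from COL1A1 and ACTA2. CD3E had 6, 0 and 0 counts in sinc and DCN 4, 0 and 3, and both had 0 in every si library. PECAM1 had 6, 6 and 0 counts in sinc against 3, 4 and 4 in si. VWF had 24, 33 and 15 against 14, 23 and 20, and LUM 19, 16 and 16 against 16, 12 and 0. COL1A1 was higher in si (adjusted p = 0.0172), and the part of these markers in the results below was not tested. In bulk RNA, fewer cells with a transcript and less of it per cell cannot be told apart.

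Of the Ku subunits, XRCC6 was lower in every si library and XRCC5 overlapped between the groups. XRCC6 (ENSG00000196419; chromosome 22, 41621119 to 41664048, plus strand, in GENCODE 29 on GRCh38), which encodes Ku70, had 702, 756 and 758 CPM in the sinc libraries against 364, 326 and 335 CPM in si. Every si library lay far below the lowest sinc library, and both groups were tight around their means. The mean was 739 ± 31.7 CPM against 342 ± 20.01 CPM in si (SD, n = 3 each), which is 46.3% of its sinc value. On the log2 scale the difference was -1.11 (SE 0.06, 95% interval of the fit -1.26 to -0.96). With its rank of 192 among 15562 genes ordered from the most negative change, it was the lowest of the 8.

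The transcript of XRCC6 also holds the longest stretch in common with SOGA1 among these genes, over a 21-base part of the SOGA1 coding sequence that was picked after the counts of all genes had been seen. The sequences are shown to let the match be read base by base. They are the sense strand of each transcript from GENCODE 29, 5′ to 3′; capitals mark the last 7 bases of the SOGA1 stretch, and in the other genes the longest run identical to it.
SOGA1 (chr20:36816186-36816206, minus strand, exon 5 of 15): gaaggaggagctgcTGAAGTA
XRCC6 (chr22:41663770-41663790, plus strand, exon 12 of 12): gaagcAGGAGCTGCTGgaagc
TP53BP1 (chr15:43470014-43470034, minus strand, exon 11 of 28): GAAGGAGGAGagccttttcag
XRCC5 (chr2:216161985-216162005, plus strand, exon 18 of 23): agtgtgaatcCTGCTGAAaac
Each of these sites lies in coding sequence. In XRCC6 the identical run is 11 bases long, from position 6 to 16 of the stretch counted from its 5′ end, and 16 of the 21 bases match, the differences being G5C, A17G, G19A, T20G and A21C. A run of at least 11 bases was present in 8.94% of the 12748 tested genes with a coding transcript besides SOGA1, and a window with at least 16 matching bases in 6.18%. The longest run was 10 bases in TP53BP1, 9 in PRKDC and NHEJ1, 8 in XRCC5, LIG4 and XRCC4 and 7 in DCLRE1C, against a median of 8 over those 12748 genes. XRCC4 had a window with 16 matching bases elsewhere in its transcript. None of the 8 genes (0 of 8) held TGAAGTA, the end of the stretch, in its 3′ UTR, beside 11.4% of the 12748. With only 8 genes, 0 is near that share and is not read as a difference. The match is a description of the transcripts, and its part in the levels was not tested.

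XRCC5 (ENSG00000079246; chromosome 2, 216107464 to 216206303, plus strand), which encodes Ku80, had 345, 333 and 365 CPM in sinc against 287, 249 and 376 CPM in si. The groups overlapped because si replicate 3 was higher than every sinc library, while the other si libraries were lower than all of them. Mean levels were 348 ± 15.8 CPM for sinc against 304 ± 65.01 CPM for si (SD, n = 3 each), with a log2 fold change of -0.19 (SE 0.14, 95% interval -0.51 to 0.12). Without si replicate 3 XRCC5 stood at -0.38 and passed the threshold of the fit, without si replicate 2 it stood at -0.07, and after the correction for transcript length and GC content it stood at 0.02.

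Because Ku70 and Ku80 are paired in the ring, their transcripts were also set side by side per length, as CPM per kb of the longest coding transcript. The ratio of XRCC6 to XRCC5 was 2.83, 3.15 and 2.88 in the sinc libraries against 1.76, 1.81 and 1.24 in si. All si ratios were below all sinc ratios. The ratio holds the difference of XRCC6 itself, while XRCC5 overlapped between the groups, so it is not a separate result. The mean ratio was 2.95 ± 0.172 in sinc and 1.604 ± 0.318 in si (SD, n = 3 each). On this scale XRCC6 was the more abundant transcript in every library, by the smallest margin in si replicate 3, where XRCC5 was highest. Coding length in place of transcript length gave ratios of 2.56 ± 0.149 and 1.39 ± 0.275 (SD, n = 3 each).

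**Figure D1:**
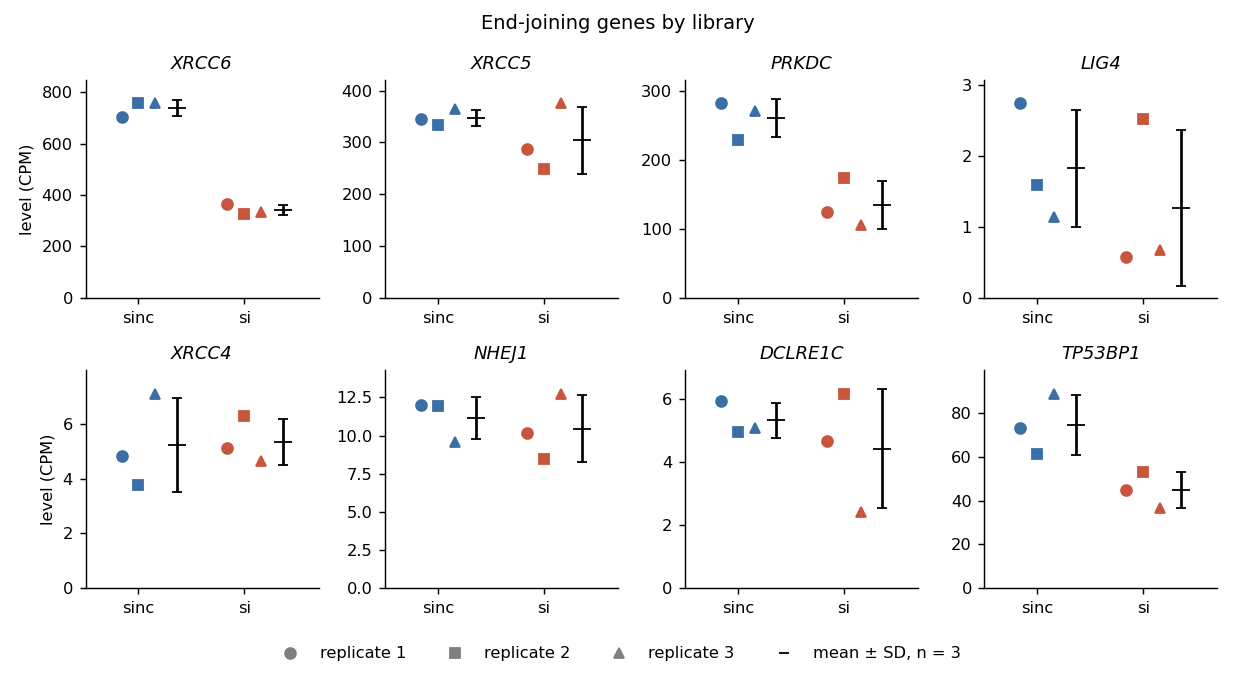
Level in CPM of each of the 8 end-joining genes in the 6 libraries; symbols mark the replicate, blue is sinc, red is si, and black bars are the mean ± SD of 3 libraries. XRCC6, PRKDC and TP53BP1 have all si libraries below all sinc libraries, and the other 5 genes overlap.

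PRKDC, the gene of the kinase subunit, was lower in si with more scatter. PRKDC (ENSG00000253729; chromosome 8, 47773108 to 47960183, minus strand) had 282, 229 and 271 CPM in sinc against 124, 173 and 106.2 CPM in si. The groups did not overlap, and si replicate 2 came closest to sinc. Mean levels were 261 ± 28.0 CPM for sinc against 135 ± 34.6 CPM for si (SD, n = 3 each), which is 51.6% of the sinc level. Its log2 fold change was -0.95 (SE 0.17, 95% interval -1.35 to -0.55). The transcript is the longest of the 8 at 13509 bases, and when each library was corrected for transcript length and GC content the change was -0.54. Its call in the fit across all genes ended when sinc replicate 1, sinc replicate 3 or si replicate 1 was left out, at -0.89, -0.93 and -0.91.

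TP53BP1 (ENSG00000067369; chromosome 15, 43403061 to 43510728, minus strand), which encodes the chromatin-bound regulator of pathway choice, had 73.3, 61.3 and 88.8 CPM in sinc against 44.7, 52.99 and 36.7 CPM in si. Again the groups did not overlap and si replicate 2 was the si library nearest to sinc. Mean levels were 74.5 ± 13.8 CPM for sinc against 44.8 ± 8.14 CPM for si (SD, n = 3 each), and the log2 fold change was -0.73 (SE 0.17, 95% interval -1.12 to -0.35). Its transcript is also long, at 10384 bases, and the length and GC correction left -0.35 and ended the call. The call also ended with no filter on low counts and without sinc replicate 1, 2 or 3 or si replicate 1 or 3, at values from -0.85 to -0.59. The gene overlaps TUBGCP4, a gamma-tubulin complex gene on the opposite strand, over 6711 bases, and whether the authors' counting used strand is not given in the sources used here. TUBGCP4 had a log2 fold change of -0.30 (SE 0.12).

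The ligase and its partners were present at far lower levels and did not separate the groups. LIG4 (ENSG00000174405; chromosome 13, 108207439 to 108218368, minus strand) had 113, 70 and 44 counts in sinc against 20, 101 and 23 counts in si, or 2.74, 1.59 and 1.14 CPM against 0.573, 2.52 and 0.679 CPM. Both low si libraries lay under all sinc libraries, while si replicate 2 was close to the highest sinc library. The log2 fold change of -0.52 had an interval of -1.90 to 0.85, wide enough to hold a fall larger than that of XRCC6 or a rise. It was -1.54 without si replicate 2, which was the lowest value among the fits for any of the 8 genes, and -0.11 without sinc replicate 1.

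XRCC4 (ENSG00000152422; chromosome 5, 83077498 to 83353787, plus strand), the scaffold of the ligase, had 4.83, 3.76 and 7.10 CPM in sinc against 5.10, 6.27 and 4.63 CPM in si. Every si value fell within the sinc range, and the log2 fold change was 0.03 (SE 0.25, 95% interval -0.55 to 0.61). XRCC4 overlaps TMEM167A on the opposite strand over 366 bases, and TMEM167A had 6755 counts in all 6 libraries together. NHEJ1 (ENSG00000187736; chromosome 2, 219075317 to 219160865, minus strand), the gene of XLF, had 11.98, 11.95 and 9.55 CPM in sinc and 10.2, 8.44 and 12.8 CPM in si. Its log2 fold change of -0.10 (SE 0.18, 95% interval -0.52 to 0.33) was small against the scatter of both groups. A read-through gene, AC068946.1, overlaps NHEJ1 over 85537 bases on the same strand and had 58 counts in all 6 libraries together.

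DCLRE1C (ENSG00000152457; chromosome 10, 14897359 to 14954432, minus strand), the gene of the Artemis nuclease, had 5.94, 4.94 and 5.07 CPM in sinc against 4.67, 6.17 and 2.42 CPM in si. The sinc libraries lay close together, and the si libraries spread from well below to just above them. The log2 fold change was -0.26 (SE 0.31, 95% interval -0.98 to 0.46). It was 0.02 without si replicate 3 and -0.59 without si replicate 2, so that its direction rested on the former library. DCLRE1C overlaps SUV39H2 on the opposite strand over 6957 bases.

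**Figure D2:**
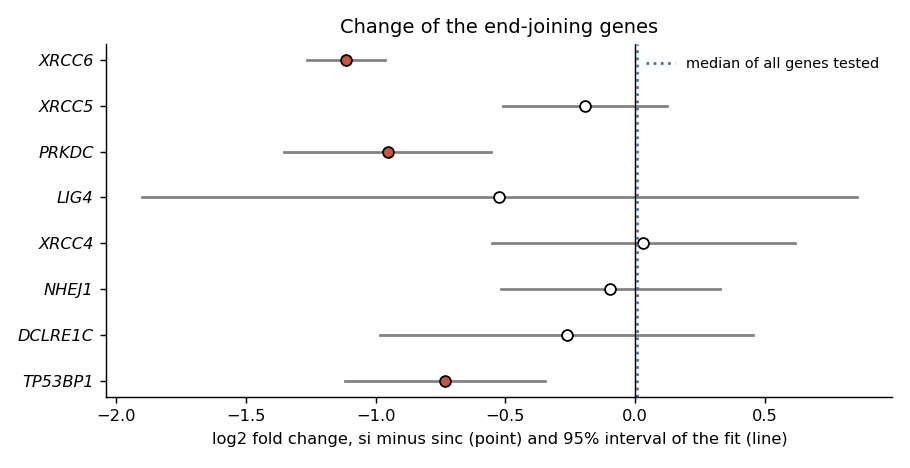
Log2 fold change (si minus sinc) of each gene as a point, with the 95% interval of the edgeR fit as a line; filled points passed an adjusted p of 0.05 over 15562 genes. The intervals of XRCC6, PRKDC and TP53BP1 lie below 0, and that of LIG4 spans from -1.90 to 0.85. The genes were chosen with these differences known, so intervals and fills are a description and not a test.

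In the fit across all genes, 3 of the 8 genes were called lower (XRCC6, PRKDC and TP53BP1) and 0 higher, with 5 not past the threshold. Since the list was chosen with this contrast in view, the count is not read against the background, in which 6% of the 15562 genes tested were called lower and 4.14% higher. With upper-quartile scaling the calls over all genes were 890 lower and 1005 higher, against 934 and 645 with TMM scaling, and the 3 calls among the 8 were the same in number. The same 3 genes had all si libraries below all sinc libraries, as did 16.8% of all genes tested. The median change of the 8 was -0.39, beside 0.0058 over all genes tested. Of the 8 values 7 were negative, as were 7683 of the 15562 genes tested, and those of XRCC5, NHEJ1 and DCLRE1C turned positive in some other fits. With 1 library left out the median of the 8 ran from -0.73, without si replicate 2, to -0.19, without sinc replicate 1. After the length and GC correction the median was -0.18, and XRCC6 stood at -1.14. XRCC6 was called in each of 17 other ways of fitting, with values from -1.17 to -1.08. PRKDC was called in 13 of 17 and TP53BP1 in 8 of 17. These fits reuse the same 6 libraries and the same chosen genes. Their calls are a description and not further support.

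**Figure D3:**
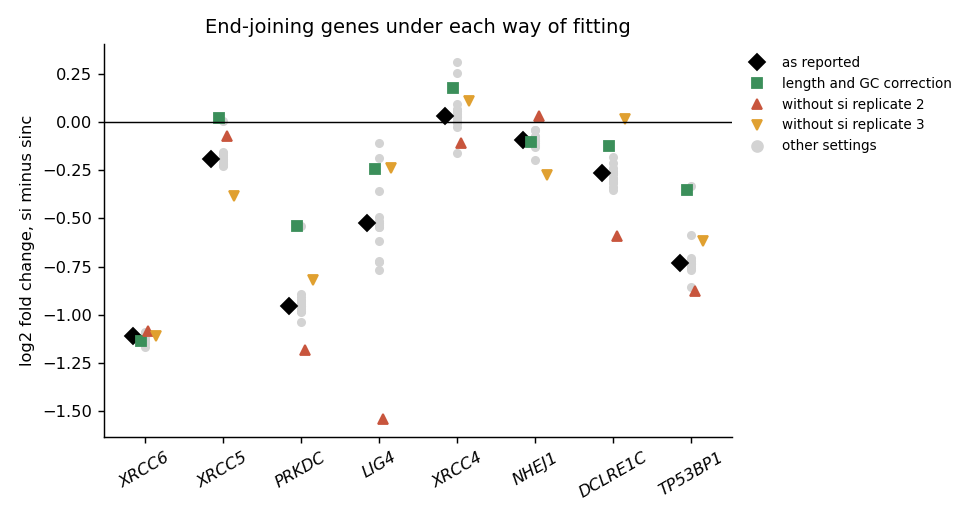
Log2 fold change (si minus sinc) of each gene under the reported fit (black) and 17 alternatives; green is the correction for transcript length and GC content, red leaves out si replicate 2 and orange si replicate 3. XRCC6 stays between -1.17 and -1.08, whereas LIG4 ranges from -1.54 to -0.11.

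Several of the genes had their highest or lowest level in the same library. Among the si libraries, replicate 2 was the highest for PRKDC, TP53BP1, LIG4, XRCC4 and DCLRE1C and the lowest for XRCC6, XRCC5 and NHEJ1. Replicate 3 was the highest for XRCC5 and NHEJ1 and the lowest for PRKDC, TP53BP1, XRCC4 and DCLRE1C. The coefficient of variation within si was 5.86% for XRCC6, 15.8% for XRCC4, 18.2% for TP53BP1 and 20.7% for NHEJ1. It was 21.4% for XRCC5, 25.7% for PRKDC, 42.7% for DCLRE1C and 87.2% for LIG4, beside a median of 12.2% over all genes tested. Within sinc it was 4.29% for XRCC6, 4.55% for XRCC5, 10.2% for DCLRE1C and 10.7% for PRKDC. The sinc values of NHEJ1, TP53BP1, XRCC4 and LIG4 were 12.5%, 18.5%, 32.6% and 45.1%, beside a median of 9.11%.

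Per kb of transcript, the order of the genes in sinc was XRCC6, XRCC5, PRKDC, TP53BP1, NHEJ1, XRCC4, DCLRE1C and LIG4. The Ku transcripts stood far above the rest, with mean levels of 273 ± 11.7 CPM per kb for XRCC6 and 92.4 ± 4.20 for XRCC5, followed by 19.3 ± 2.07 for PRKDC (SD, n = 3 each). TP53BP1 at 7.17 ± 1.33 and NHEJ1 at 5.71 ± 0.714 CPM per kb overlapped, as did XRCC4 at 3.20 ± 1.04 and DCLRE1C at 2.26 ± 0.230 (SD, n = 3 each). LIG4 was the scarcest at 0.436 ± 0.197 CPM per kb (SD, n = 3). In si the order was the same except that NHEJ1, at 5.35 ± 1.11, stood above TP53BP1, at 4.31 ± 0.784 (SD, n = 3 each), with overlapping libraries. XRCC6 and XRCC5 were closer in si, at 126 ± 7.39 and 80.9 ± 17.3 CPM per kb (SD, n = 3 each), but their libraries did not overlap.

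**Figure D4:**
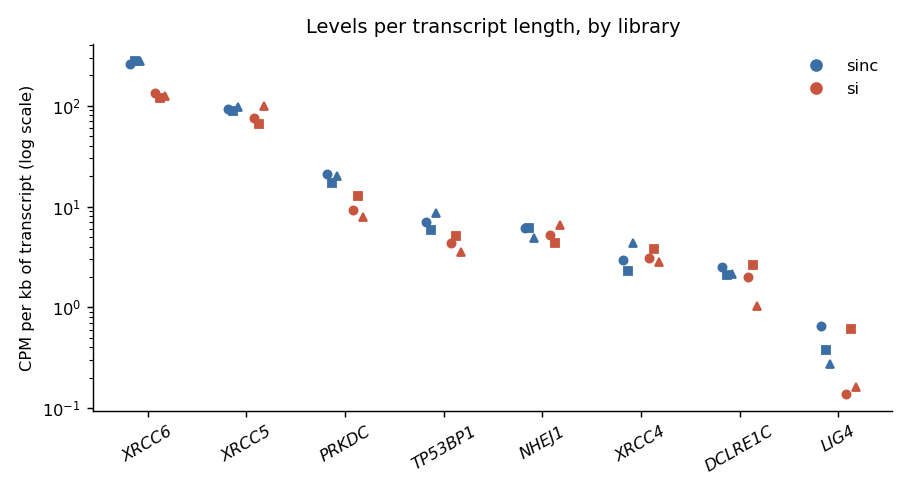
Level of each gene in CPM per kb of its longest coding transcript, on a log scale, with 1 symbol per library (blue sinc, red si; circle, square and triangle for replicates 1, 2 and 3). The genes are ordered by their sinc mean, from XRCC6 at 273 to LIG4 at 0.436 CPM per kb.

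The genes with the profile most like that of XRCC6 were ranked by the Euclidean distance between centred log2 CPM values over the 6 libraries. The ranking covered 10067 genes with a mean of at least 5 CPM and an upper-case symbol, without LOC, LINC or ENSG names. The nearest were NDUFS8 (distance 0.135), RAB21 (0.223), MYO5B (0.237), MTOR (0.245) and TAF11 (0.251). Such profiles hold the si against sinc difference itself, which chose these genes: the log2 fold changes of these 5 lay between -1.28 for MYO5B and -0.93 for TAF11. NDUFS8 encodes a complex I subunit, RAB21 an endosomal GTPase, MYO5B a myosin motor, MTOR a growth-regulating kinase and TAF11 a subunit of the general transcription factor TFIID. RAB21 stood at -0.39 after the length and GC correction and lost its call. The longest run shared with the SOGA1 stretch was 12 bases in NDUFS8, 13 in MTOR, 10 in MYO5B, 8 in RAB21 and 7 in TAF11. A run of at least 12 bases was present in 3.3% of the 12748 genes searched, and one of at least 13 in 1.43%. TGAAGTA occurred 4 times in the 3′ UTR of RAB21 and 1 time in that of TAF11, and in 11.4% of the 12748 genes. Both the genes and the stretch were picked with these counts known. The matches are therefore a description, and their part in the levels was not tested. Of the end-joining genes PRKDC came in at rank 216, TP53BP1 at 328, XRCC5 at 2684, NHEJ1 at 4151 and XRCC4 at 7805, and LIG4 and DCLRE1C were below the level required.

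Genes that act beside the core proteins were described by lists written out by function. These lists were also chosen with results of these libraries known and are a description too. The adjusted p-values printed for their genes state the side of the threshold and are not independent tests. Beside the counts below, 6% of the 15562 genes tested were lower and 4.14% higher. Without si replicate 2, which raises the count of most lists, the calls over all genes rose from 1579 to 2563. All 12 measured accessory factors of end joining, which include processing enzymes, gap-filling polymerases and adaptors, stayed short of the threshold: 0 were called lower and 0 higher by edgeR, with 0 and 1 at an unadjusted p under 0.05. DESeq2 and limma-voom called 0 of them lower, and 2 were lower without si replicate 2. Their median change was 0.09. The most abundant were APTX, which removes AMP from abortive ligation ends, at 66.8 ± 5.52 CPM for sinc against 77.6 ± 2.13 CPM for si (SD, n = 3 each), a log2 fold change of 0.22 (SE 0.07, adjusted p = 0.10), and CYREN, a Ku-binding regulator listed under its older symbol C7orf49, at 46.7 ± 0.783 and 51.6 ± 3.53 CPM (SD, n = 3 each; edgeR adjusted p = 0.23). PAXX, a paralog of XRCC4 and XLF that binds Ku, had a log2 fold change of 0.21 (SE 0.09, adjusted p = 0.17); this name was picked with the value in view.

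Upstream of the repair choice, genes of break sensing and chromatin signalling had a median change of -0.34, with 3 of 12 lower (6% over all genes), 0 higher and 9 not past the test. Without si replicate 2 the number lower was 6, in a fit that called more genes in all, and with the length and GC correction it was 1. KMT5A, the histone H4 lysine methyltransferase whose mark 53BP1 reads once it is extended, fell from 67.9 ± 1.35 to 40.6 ± 1.39 CPM between sinc and si (SD, n = 3 each), a log2 fold change of -0.74 (SE 0.06, adjusted p = 0.000963). NSD2, another histone methyltransferase, fell by 0.41 (SE 0.05, adjusted p = 0.00678), and MDC1, the adaptor that binds phosphorylated H2AX, fell by 0.40 (SE 0.06, adjusted p = 0.00999). Under the length and GC correction NSD2 and MDC1 lost their calls, at -0.19 and -0.21. MDC1 also lost its call when sinc replicate 1 or 3 or si replicate 1 was left out, at -0.38, -0.38 and -0.40. The end-binding complex genes MRE11, RAD50 and NBN had log2 fold changes of -0.35, -0.33 and -0.58 and did not pass (adjusted p = 0.35, 0.65 and 0.17).

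Downstream of 53BP1, 1 of 14 measured effectors fell (6% over all genes), 1 rose (4.14% over all genes) and 12 did not pass, with a median of 0.07. These counts are near the background. Without si replicate 2, 2 were lower. The gene that fell was USP28, a deubiquitinase that binds 53BP1 (log2 fold change -0.51, SE 0.10, adjusted p = 0.0258), and the gene that rose was NUDT16L1, which encodes TIRR, a protein that masks the 53BP1 methyl-lysine reader (0.47, SE 0.10, adjusted p = 0.0259). Under the length and GC correction both calls ended, at -0.22 for USP28 and 0.29 for NUDT16L1. The call of USP28 also ended without sinc replicate 1, 2 or 3 or si replicate 1, at -0.55 to -0.46. That of NUDT16L1 ended when sinc replicate 1 or 3 or si replicate 1 or 3 was left out, at 0.42 to 0.46, and without a filter, at 0.44. NUDT16L1 stood at 21.9 ± 2.04 CPM for sinc against 30.4 ± 1.87 CPM for si, and USP28 at 22.5 ± 1.07 and 15.7 ± 1.37 CPM (SD, n = 3 each). RIF1, which 53BP1 recruits directly, varied too much within groups for a difference to be detected (9.40 ± 5.32 CPM for sinc against 8.46 ± 8.15 CPM for si, SD, n = 3 each). MAD2L2, the shieldin subunit REV7, had a log2 fold change of 0.26 (SE 0.07, adjusted p = 0.058).

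Of the genes for the alternative route through polymerase theta and for sealing nicks, 2 of 9 fell (6% over all genes), 0 rose and 7 did not pass, with a median of -0.09. XRCC1, the scaffold that carries LIG3, fell from 64.8 ± 1.75 to 46.8 ± 1.697 CPM (SD, n = 3 each), a log2 fold change of -0.47 (SE 0.06, adjusted p = 0.00688). PARP1, the abundant sensor of DNA nicks and breaks, fell from 357 ± 16.8 to 266 ± 26.5 CPM (SD, n = 3 each), a log2 fold change of -0.43 (SE 0.08, adjusted p = 0.0214), and its call ended without sinc replicate 1, 2 or 3 or si replicate 1, at -0.45, -0.44, -0.39 and -0.42. The ligase genes LIG1 and LIG3 had log2 fold changes of -0.01 (SE 0.07) and -0.09 (SE 0.08).

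Homologous recombination and the resection that starts it had a median change of -0.30, with 2 of 20 lower (6% over all genes), 0 higher and 18 not past the test. DNA2, a resection nuclease and helicase, fell by 0.81 (SE 0.19, adjusted p = 0.035), and lost its call under the length and GC correction, at -0.44. Its call also ended with no filter, at -0.84, and without sinc replicate 1, 2 or 3 or si replicate 1, at -0.91 to -0.71. The number lower in this list was 7 without si replicate 2 and 1 without sinc replicate 1, 2 or 3 or si replicate 1.

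Among the PI3K-like kinases, the family of PRKDC, and the chaperones that fold them, 3 of 13 were lower (6% over all genes), 0 higher and 10 not past the test, with a median of -0.30. PRKDC itself is among the 3, so that 2 of the 12 others were lower, and without si replicate 2 the number lower was 5. MTOR fell from 129 ± 3.70 to 56.3 ± 1.78 CPM (SD, n = 3 each), a log2 fold change of -1.20 (SE 0.06, adjusted p = 0.000129). TRRAP, the pseudokinase scaffold of histone acetyltransferase complexes, fell by 0.49 (SE 0.06, adjusted p = 0.00478), and lost its call under the length and GC correction, at -0.22. The DNA-damage kinases ATM and ATR had log2 fold changes of -0.17 (SE 0.54) and -0.38 (SE 0.46), with errors too large to place them. The chaperone genes TELO2, TTI1 and TTI2 had changes of 0.04 (SE 0.09), -0.30 (SE 0.08, adjusted p = 0.056) and -0.17 (SE 0.10).

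Telomere end protection, which keeps chromosome ends from being joined, had 0 of 7 genes lower and 0 higher by edgeR, with 0 and 2 at an unadjusted p under 0.05; DESeq2 called 0 lower and 1 higher, and 1 was lower without si replicate 2. The median change was 0.11. TERF2IP and TERF2, the most abundant, had log2 fold changes of 0.28 (SE 0.08, adjusted p = 0.066) and -0.06 (SE 0.08). Of the lymphocyte proteins that cut antigen receptor genes before end joining, RAG1 was at 0.589 ± 0.0420 CPM for sinc against 0.325 ± 0.125 CPM for si (SD, n = 3 each), and RAG2 and DNTT were not analysed here.

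**Figure D5:**
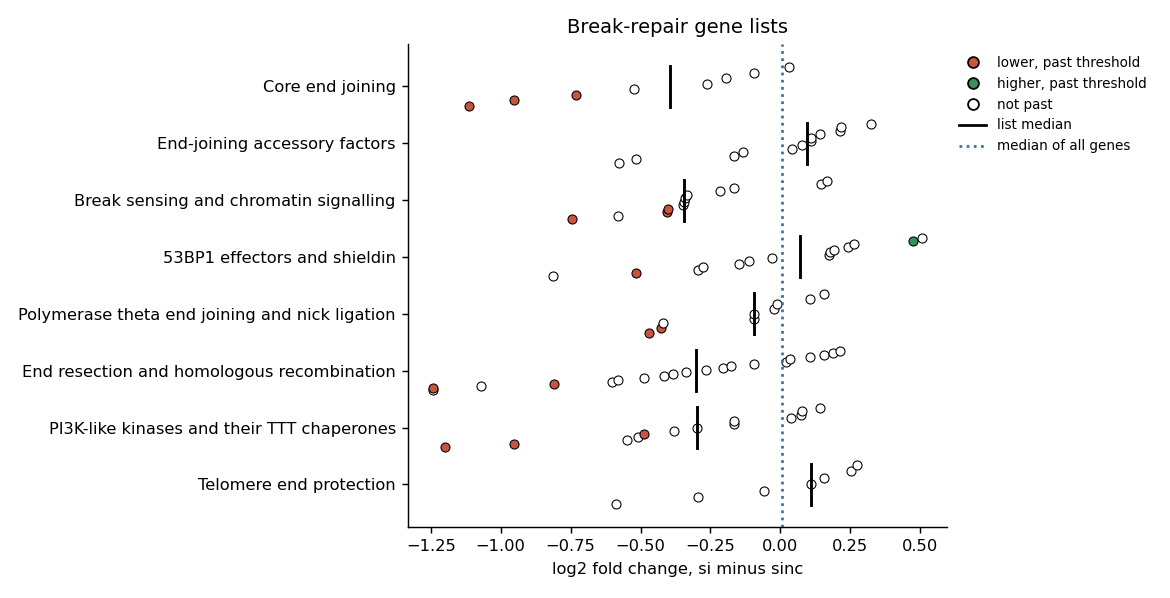
Log2 fold change (si minus sinc) of each measured gene in 8 break-repair lists, with 1 point per gene; red and green points passed an adjusted p of 0.05 as lower or higher, black bars are list medians and the dotted line is the median of all genes tested. The medians run from -0.39 for the core end-joining genes to 0.11 for telomere end protection.

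A pseudogene of XRCC6, XRCC6P2, had its own row in the table with 2 to 10 counts per library. It had 9, 7 and 9 counts in sinc against 9, 2 and 10 in si.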

How the data were processed

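Per the labels' protocols, libraries were prepared from poly(A) RNA with dUTP strand marking. Raw whole-number counts per gene were deposited in 1 table beside Ensembl IDs and symbols. CASAVA and StringTie are named in the submitters' processing notes, without versions; no source used here gives the aligner, genome build, annotation or use of strand. StringTie shares reads among overlapping models, so overlapping genes and pseudogene copies are uncertain. PCR copies were not told apart, so counts are not independent molecules.

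Columns were matched to samples by title. Symbols missing or turned into dates in 783 rows were completed by gene ID from a name table, which matched 26567 of 26699 IDs. Counts were tested in R 4.3.3 with edgeR 4.0.16: filterByExpr at a minimum count of 10, TMM scaling, glmQLFit and glmQLFTest with group as the only term, two-sided, Benjamini-Hochberg adjustment over 15562 genes, threshold 0.05. Adjusted p-values in the text are from this fit. SE was taken as the size of the log2 fold change divided by the root of F. Transcript length, GC content and sequences came from the transcript with the longest coding sequence in GENCODE 29 (GRCh38), which 12749 tested genes had (81.9%).

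The genes and all lists were chosen with earlier results of these data known. Named genes were the 8 core genes, SOGA1, in each list the up to 4 called genes of smallest adjusted p (with none called, the 2 with the highest CPM), the 5 profiles nearest to XRCC6, and pseudogene rows; other names are examples chosen after their values were seen. A gene that the rule names in the homologous recombination list is not reported here. Other fits used RLE, upper-quartile or total-count scaling, DESeq2 1.42.0, limma-voom (limma 3.58.1), no filter or one at 50 counts, replicate number as a block term, a per-library spline on length and GC content (4 degrees of freedom each) as offsets, both together, the same genes uncorrected, and each library left out. Library pairs within a group differed by a chi-square per gene of 14.0 to 61.0, so none was taken for a repeat.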

Additional observations from a re-analysis of the deposited data

How the results depend on the processing

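SOGA1 was called lower in all 17 alternative fits, from -1.47 to -1.13. The number of genes called, 1579 as reported, was 2926 with DESeq2, 844 without a filter and 612 with the length and GC correction, and 203 to 2563 with 1 library left out. Of the 8 core end-joining genes, 1 to 3 were called lower with 1 library left out. The same range was 0 to 2 for accessory factors, 2 to 6 for break sensing, 0 to 2 for 53BP1 effectors, 1 to 2 for the polymerase theta list, 1 to 7 for homologous recombination, 2 to 5 for the PI3K-like kinases and 0 to 1 for telomere protection. Homologous recombination had 4 lower with DESeq2 and 1 without a filter. The length and GC correction left 1 lower in break sensing and 0 among 53BP1 effectors. The cause of these shifts was not tested.

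Same-numbered si and sinc libraries did not deviate together (r = -0.18, -0.03 and 0.15 across genes for numbers 1, 2 and 3), so the numbers were not taken as pairs. The values largest in size were between libraries of different number. They were 0.32 for si replicate 2 with sinc replicate 1 and -0.28 for si replicate 2 with sinc replicate 3. The cause of this shared deviation was not tested. With the replicate block 438 genes were called, with 0 lower among 53BP1 effectors and 1 in homologous recombination; XRCC6 stood at -1.11, PRKDC at -0.98 and TP53BP1 at -0.73, the last without a call. The replicate block together with the length and GC correction left 264 genes, with 1 lower in each of the core genes, break sensing, the polymerase theta list, homologous recombination and the PI3K-like kinases, and 0 among 53BP1 effectors. The ratio of XRCC6 to XRCC5 in si was 1.39 by coding length and 1.499 to 1.79 with 1 si library left out. LIG4 had the lowest counts of the core genes, from 20 to 113 per library, with a coefficient of variation of 45.1% in sinc and 87.2% in si.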
